A study of Mus musculus with 2 samples.

Results

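The tumor suppressor p53 and 9 of its target genes were followed in single cells of mouse retina. The 10 genes were Trp53, Mdm2, Ccng1, Trp53inp1, Eda2r, Phlda3, Zmat3, Sesn2, Bbc3 and Pmaip1. They were picked by symbol and not by their values, and all 10 were found among the 27998 genes listed for each library. p53 is a transcription factor that is kept low by ubiquitination and is stabilised by DNA damage, oncogene activity and other stress. Its targets stop the cell cycle, repair damage, limit growth or start apoptosis, and the product of its target Mdm2 marks p53 for degradation, which closes a negative feedback loop. In the retina, loss of the pocket proteins Rb and p107 lets progenitors and newborn neurons divide out of turn, and the p53 pathway is a known barrier to the tumors that can follow.

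The 2 groups were 1 library each of peripheral retina at postnatal day 8. DKO mice carried the alpha-Cre transgene, Rb f/f and p107-/-, and the labels call them tumor-prone. DKO_Skp2het mice carried the same alleles and had in addition lost a single copy of Skp2, whose product recruits the cyclin-dependent kinase inhibitor p27 to a ubiquitin ligase, and are called tumor-resistant. Both groups therefore share the Rb and p107 deletions, and no library with intact Rb and p107 was analysed here. The dissected area was the one in which alpha-Cre is expressed, no sort for recombined cells is described, and cells were freed with papain before 10x 3′ capture. The number of animals behind each library is not given in the sources used here. With 1 library per genotype there is no replicate check and no test: intervals are 95% intervals for counting error only, and UMIs (unique molecular identifiers, each a captured transcript) of the same cell were treated as independent.

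The DKO library held 3515 cells after filtering, with a median of 4867 UMIs, and the DKO_Skp2het library held 4978 cells with a median of 3799.5. The shallowest cell had 3420 UMIs in DKO and 2387 in DKO_Skp2het, and 30 barcode sequences occurred in both. Skp2 was measured at 80.5 CPM (UMIs of a gene scaled to a constant total per library) in DKO and at 56.8 CPM in DKO_Skp2het. Rb1 was at 22.7 and 22.0 CPM and Rbl1, which encodes p107, at 32.2 and 32.7 CPM. The 3′ UMIs of Rb1 and Rbl1 may lie outside the deleted parts and check nothing. Retinal markers named 7 classes of at least 50 cells in each library, called Muller glia-like, retinal progenitor-like, neurogenic progenitor-like, immature neuron-like, rod-like, bipolar-like and amacrine-like. A further 7 clusters of that size had no clear match and are given by number and leading genes. Cells were called dividing when they held at least 3 UMIs of 26 core proliferation genes after thinning to 1500 UMIs, which gave 2048 dividing cells in DKO and 2420 in DKO_Skp2het.

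Sequences are shown for the genes whose promoters held the letters that p53 binds. The p53 consensus decamer, searched by its published degenerate pattern, is its own reverse complement, so a single pass covers both strands. RefSeq promoter windows of 300 bases, from 250 before to 50 after the start (GRCm38.p6), were held for 7 of the 10 genes, and 3 of these 7 contained a perfect decamer. The share was 9.55% of 27025 genes in the same table. The stretches below lie upstream of the RefSeq start and hold no annotated exon. Capitals mark the decamer, and in Ccng1 also the decamer directly before it, which has 1 mismatch.
Ccng1: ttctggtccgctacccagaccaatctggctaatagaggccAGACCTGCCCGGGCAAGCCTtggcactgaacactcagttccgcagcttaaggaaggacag
Mdm2: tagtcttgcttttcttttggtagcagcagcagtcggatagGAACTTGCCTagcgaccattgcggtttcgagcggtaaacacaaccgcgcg
Trp53: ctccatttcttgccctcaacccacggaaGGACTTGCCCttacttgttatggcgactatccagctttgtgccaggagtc

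The Ccng1 stretch is chr11:40755422-40755521 on the minus strand, and its capitals begin 195 bases before the RefSeq start. The Mdm2 stretch is chr10:117710895-117710984 on the minus strand, with capitals beginning 186 bases before the start, and the Trp53 stretch is chr11:69580256-69580333 on the plus strand, with capitals 75 bases before it. Ccng1 was the only gene of the 3 with a pair of decamers that together had at most 1 mismatch and at most 13 bases between them, an arrangement found in 0.718% of genes. These matches describe letters in the windows and were not measured as binding. The windows of Eda2r, Phlda3, Sesn2 and Bbc3 held no perfect decamer.

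Trp53 itself (ENSMUSG00000059552, chr11:69580359-69591873 in GRCm38) was broadly detected and differed little with genotype or division. It was at 77.4 CPM in DKO and 84.7 CPM in DKO_Skp2het, a ratio of 1.09 (1.03 to 1.17). After every cell was thinned to 1500 UMIs, 12.2% of DKO and 12.4% of DKO_Skp2het cells held a Trp53 UMI. Dividing cells were at 79.8 CPM against 73.5 CPM in non-dividing cells of DKO, a ratio of 1.09 (0.986 to 1.20), and at 89.3 against 79.7 CPM in DKO_Skp2het, a ratio of 1.12 (1.03 to 1.22). Transcript level is not p53 protein or activity, neither of which was measured.

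Across cell classes Trp53 was highest in cluster 3 and lowest in neurons with mature markers. Cluster 3, led by Miat, Rgs13, Wnt5b, Pkib and Dll3, ranked first in both libraries, with 149 CPM in DKO and 139 CPM in DKO_Skp2het. Cluster 4 was at 92.8 and 125 CPM, with rank 4 in DKO and 2 in DKO_Skp2het. Muller glia-like cells were at 111 and 111 CPM and retinal progenitor-like cells at 102 and 106 CPM. Amacrine-like cells were lowest, at 31.9 CPM in DKO and 18.0 CPM in DKO_Skp2het, and bipolar-like cells were at 44.9 and 25.9 CPM. Rod-like cells, at 43.9 and 45.1 CPM, did not differ from bipolar-like cells beyond counting error in DKO but were above them in DKO_Skp2het. Only 1 of the 13 steps between neighbouring classes exceeded counting error in each library, so most neighbours in the order were not told apart.

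The negative feedback regulator Mdm2 (ENSMUSG00000020184, chr10:117688875-117710758), the E3 ligase that degrades p53, was the target with the most UMIs, 2073 in DKO and 2124 in DKO_Skp2het. Its level was 88.6 CPM in DKO and 88.9 CPM in DKO_Skp2het, a ratio of 1.00 (0.944 to 1.07). Ccng1 (ENSMUSG00000020326, chr11:40748552-40755311), which encodes cyclin G1, was at 50.0 and 48.4 CPM, a ratio of 0.968 (0.892 to 1.05). Both genes were thus at the same level in the libraries within counting error when all cells were summed.

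Trp53inp1 (ENSMUSG00000028211, chr4:11156431-11174379), which encodes a stress-induced cofactor of p53, was at 20.60 CPM in DKO and 24.02 CPM in DKO_Skp2het, a ratio of 1.17 (1.03 to 1.32). Sesn2 (ENSMUSG00000028893, chr4:132492032-132510501), a sestrin that restrains mTORC1 signalling, was at 9.92 and 8.49 CPM, a ratio of 0.856 (0.706 to 1.04). The annotation places Gm12981 on the same strand over Sesn2, so reads of the pair cannot be told apart where they overlap. Phlda3 (ENSMUSG00000041801, chr1:135766119-135769136), an inhibitor of Akt signalling, was at 21.0 and 20.5 CPM, and Zmat3 (ENSMUSG00000027663, chr3:32334792-32366014), an RNA-binding protein, at 23.4 and 22.7 CPM. The ratios of Phlda3 and Zmat3 were 0.979 (0.862 to 1.11) and 0.970 (0.860 to 1.09), which include no difference.

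Among the death genes, Bbc3 (ENSMUSG00000002083, chr7:16308393-16318205), which encodes the BH3-only protein Puma, was at 28.0 CPM in DKO and 26.8 CPM in DKO_Skp2het. Pmaip1 (ENSMUSG00000024521, chr18:66458533-66465565), which encodes Noxa, was near the lower end of detection at 4.40 and 4.48 CPM. Their ratios were 0.958 (0.858 to 1.07) and 1.02 (0.768 to 1.35). Eda2r (ENSMUSG00000034457, chrX:97333840-97377216), a receptor of the tumor necrosis factor family, had the ratio farthest from 1 among the 10 genes. It was at 4.57 CPM in DKO and 2.76 CPM in DKO_Skp2het, a ratio of 0.604 (0.437 to 0.828).

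Summed over all cells, the target genes as a group did not differ between the libraries beyond counting error. The libraries differed in their class shares. Retinal progenitor-like cells, with few target UMIs, were 4.67% of DKO and 13.12% of DKO_Skp2het cells. Of the clusters with more, cluster 11 was 4.69% and 1.55%, while cluster 4 was 6.12% and 9.12%. The part of these shares in the ratios of all cells, including those of single genes, was not tested. Together the 9 targets reached 250.5 CPM in the DKO library and 247.1 CPM in the other, a ratio of 0.986 (0.951 to 1.02), and their median log2 ratio was -0.04, against 0.03 over all 12415 genes with at least 100 UMIs. A fold rule called a gene higher when its ratio was at least 25% above 1 and lower when it was at least 20% below. By it 0 of the 10 genes were higher in DKO_Skp2het, where 9.37% of all genes were, and 1, Eda2r, was lower, where 5.58% of all genes were. Cdkn1a, which encodes the cell cycle inhibitor p21 and is the best known arrest target of p53, was at 499.9 CPM in DKO and 472.0 CPM in DKO_Skp2het, a ratio of 0.944 (0.920 to 0.969). In thinned cells, which weight every cell alike, that ratio was 1.10, so its direction depended on how cells were weighted.

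Within states and classes some differences appeared. In dividing cells Phlda3 was at 20.9 CPM in DKO and 25.5 CPM in DKO_Skp2het, and in non-dividing cells it was at 21.1 and 15.2 CPM, a ratio of 0.721 (0.584 to 0.890). Bbc3 was also lower in non-dividing cells of DKO_Skp2het, with 28.4 against 22.1 CPM and a ratio of 0.777 (0.651 to 0.928). Mdm2 went the other way in non-dividing cells, at 51.0 CPM in DKO and 61.8 CPM in DKO_Skp2het, a ratio of 1.21 (1.07 to 1.36). Each state mixes classes whose shares differed between the libraries. Amacrine-like cells, high in Bbc3 and nearly all non-dividing, were 3.24% of DKO and 2.05% of DKO_Skp2het cells. The part of class shares in these ratios was not tested. Within the 14 classes and clusters, the summed targets were above counting error in DKO_Skp2het in 4 and below it in 0. The 4 were cluster 12 with a ratio of 1.35 (1.23 to 1.47), cluster 5 with 1.21 (1.03 to 1.42), neurogenic progenitor-like cells with 1.20 (1.03 to 1.39) and immature neuron-like cells with 1.18 (1.03 to 1.35). In thinned cells these ratios were 1.245, 1.06, 1.36 and 1.03, so those of cluster 5 and immature neuron-like cells came close to no difference. The share of other genes with such a pattern over classes was not computed, so nothing is read from the count.

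**Figure D1:**
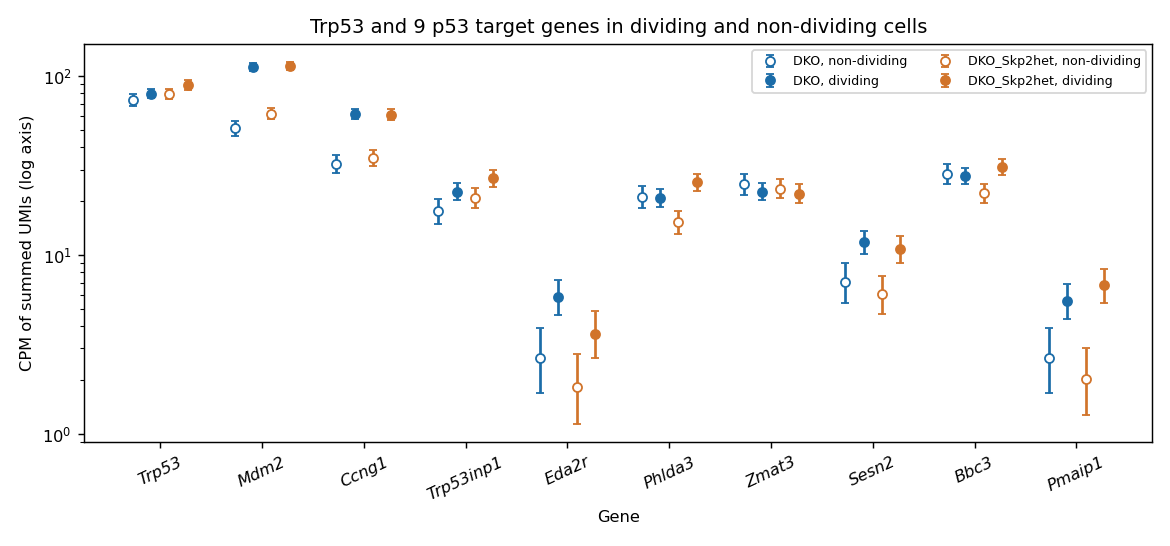
CPM of summed UMIs (log axis) for Trp53 and 9 target genes in non-dividing (open circles) and dividing (filled circles) cells of DKO (blue) and DKO_Skp2het (orange). Bars are exact 95% Poisson intervals for counting error in 1 library each. Mdm2 and Ccng1 were higher in dividing cells of both libraries, while Zmat3 was not.

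Dividing cells held more target transcripts than non-dividing cells in both libraries. The 9 targets reached 290.7 CPM in dividing and 187.6 CPM in non-dividing cells of DKO, a ratio of 1.55 (1.46 to 1.64), and to 301.2 and 188.2 CPM in DKO_Skp2het, a ratio of 1.60 (1.52 to 1.69). Cdkn1a differed more, at 702.8 against 181.9 CPM in DKO and 742.8 against 177.4 CPM in DKO_Skp2het, ratios of 3.86 (3.67 to 4.07) and 4.19 (3.99 to 4.40). The inhibitor transcript was thus higher in the cells called dividing.

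The targets differed among themselves in this comparison. Mdm2 was at 112.6 CPM in dividing and 51.0 CPM in non-dividing cells of DKO, a ratio of 2.21 (1.99 to 2.45), and at 113.8 and 61.8 CPM in DKO_Skp2het, a ratio of 1.84 (1.68 to 2.02). Ccng1 had ratios of 1.89 (1.66 to 2.17) and 1.74 (1.54 to 1.97), Sesn2 of 1.67 (1.248 to 2.27) and 1.79 (1.33 to 2.42), and Pmaip1 of 2.10 (1.32 to 3.47) and 3.36 (2.10 to 5.58). Eda2r had ratios of 2.21 and 1.97 from few UMIs, and Trp53inp1 of 1.28 and 1.29. Zmat3 stood at 0.909 (0.764 to 1.08) and 0.936 (0.789 to 1.11), within counting error of no difference. Phlda3 and Bbc3 had DKO ratios of 0.993 (0.826 to 1.20) and 0.975 (0.832 to 1.15), which include no difference, and were higher in dividing cells of DKO_Skp2het, at 1.67 and 1.41.

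By the fold rule, 6 of the 10 genes were higher and 0 lower in dividing cells of DKO, where the shares of all genes were 22.7% and 32.3%. In DKO_Skp2het, 7 of the 9 genes with at least 100 UMIs were higher and 0 were lower, where the shares were 22.0% and 30.6%. Eda2r fell under 100 UMIs there. The median log2 ratio of the targets was 0.74 in DKO and 0.77 in DKO_Skp2het, against -0.06 over all genes in each library.

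The difference was smaller without a small group of cells that was chosen for high Mdm2, as described below. Nearly all of these cells were dividing, so lower ratios of Mdm2 and of the sum without them follow from that choice. Clusters 12 and 23 together held 127 cells in DKO and 131 in DKO_Skp2het, of which 96.9% and 97.7% were dividing. Without them, the ratio of the summed targets between dividing and non-dividing cells was 1.26 (1.18 to 1.33) in DKO and 1.28 (1.21 to 1.36) in DKO_Skp2het. Mdm2 then stood at 1.56 and 1.26 and Ccng1 at 1.70 and 1.54, still above counting error in both libraries. Bbc3 turned to 0.641 (0.533 to 0.770) in DKO and 0.973 (0.812 to 1.16) in DKO_Skp2het, so outside these clusters it was not higher in dividing cells. Pmaip1 stood at 0.849 (0.477 to 1.52) and 1.42 (0.788 to 2.62), on 53 and 51 UMIs. Cdkn1a kept ratios of 2.71 and 3.05.

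Within the single classes compared here the difference was smaller still, and most intervals included none. The clusters themselves differed in division. In both libraries 100% of cluster 5 cells were dividing, against 21.95% of retinal progenitor-like cells in DKO and 20.67% in DKO_Skp2het. By its markers cluster 5 was nearest to retinal progenitors. Dividing cells may thus have been set apart from their class before this comparison, and the part of this in the smaller ratios was not tested. Within Muller glia-like cells the summed targets of dividing over non-dividing cells had a ratio of 1.21 (0.974 to 1.49) in DKO and 1.17 (0.978 to 1.39) in DKO_Skp2het. Within cluster 4 the ratios were 1.21 (0.976 to 1.51) and 1.15 (0.973 to 1.37), and within cluster 3 they were 1.13 (0.802 to 1.62) and 1.248 (1.02 to 1.54). Immature neuron-like cells of DKO showed 0.998 (0.794 to 1.247). Cdkn1a was higher in dividing cells of Muller glia-like cells, cluster 3 and cluster 4 in both libraries, by ratios between 1.30 and 1.74.

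Clusters 12 and 23 were singled out after their values were seen, as the clusters with Mdm2 at 3 or more times its level in all other cells in both libraries, so their Mdm2 level is the choice and not a finding. Mdm2, Ccng1, Bbc3, Pmaip1 and Cdkn1a were also among the genes used for clustering, as were Btg2, Gadd45a, Plk2, Ddit4, Ak1, Gdf15 and Abhd4. A cluster set against the rest is therefore a description. Cluster 12 was led by Txnip, Myc, Zfp503, Klf5, Sp9 and Gadd45b and cluster 23 by Gadd45b, Txnip, Ier5l, Rasl11b and Plk5. Neither matched a retinal class by its leading genes. When all p53 pathway genes were left out of the clustering genes, a cluster with the same 103 and 103 cells as cluster 12 formed again.

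The targets in these clusters divided into genes that were far higher and genes that were not. Against all other cells, Mdm2 was at 437.5 against 66.5 CPM in DKO and 541.4 against 68.8 CPM in DKO_Skp2het, ratios of 6.58 and 7.87. Pmaip1 was at 35.9 against 2.41 CPM in DKO and 55.1 against 2.23 CPM in DKO_Skp2het, ratios of 14.9 (9.91 to 22.3) and 24.7 (16.6 to 36.9). These few cells held 50 Pmaip1 UMIs in DKO and 56 in DKO_Skp2het, while all other cells held 53 and 51. Bbc3 had ratios of 5.84 (4.89 to 6.96) and 6.59 (5.43 to 7.94), Sesn2 of 3.80 (2.68 to 5.28) and 7.56 (5.39 to 10.4), and Ccng1 of 2.57 (2.17 to 3.04) and 3.15 (2.63 to 3.76). Eda2r had ratios of 4.32 (2.60 to 6.92) and 3.11 (1.28 to 6.54).

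By contrast, Trp53 was at 89.7 against 76.6 CPM in DKO and 87.6 against 84.6 CPM in DKO_Skp2het, ratios of 1.17 (0.968 to 1.40) and 1.04 (0.828 to 1.28). Zmat3 had ratios of 1.08 and 1.13, Trp53inp1 of 1.08 and 1.24, and Phlda3 of 0.775 (0.487 to 1.18) and 0.759 (0.430 to 1.245). The intervals of these 4 genes included no difference in both libraries. Cdkn1a was at 2728 against 358.7 CPM in DKO and 3163 against 352.5 CPM in DKO_Skp2het, ratios of 7.60 and 8.97. Compared with other dividing cells only, the summed targets were 3.56 (3.32 to 3.81) times as high in DKO and 4.204 (3.91 to 4.52) times in DKO_Skp2het. This sum includes Mdm2, by which the clusters were chosen, so it partly repeats that choice.

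By the fold rule, 6 of the 10 genes were higher and 1 lower in these clusters in DKO, where 25.5% of all genes were higher and 42.9% lower. In DKO_Skp2het, 5 of 9 genes were higher and 1 lower, where the shares were 27.0% and 44.1%. Nothing is read from these counts, since Mdm2 chose the clusters. Several other measures moved with them. Their cells had a median of 7538 UMIs in DKO and 6254 in DKO_Skp2het, against 4808 and 3776 elsewhere. Mitochondrial UMIs had a median of 1.89% and 1.90% against 3.37% and 3.56%, and the median doublet score was 0.689 and 0.685 against 0.433 and 0.417.

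S phase genes gave 11.5 and 12.4 UMIs per thinned cell in the same clusters, against 5.91 and 6.62 in other dividing cells. The 19 genes of a tissue dissociation response summed to 3611 against 3620 CPM in DKO and 4758 against 4030 CPM in DKO_Skp2het. Its members were divided: of 16 measured, 6 in DKO and 7 in DKO_Skp2het were higher by the fold rule, among them Atf3, Ier3, Klf4 and Dusp1, and 6 in each library were lower, among them Fos, Fosb and Egr1. The part of depth, doublets, cell cycle phase and dissociation in the target levels was not tested.

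**Figure D2:**
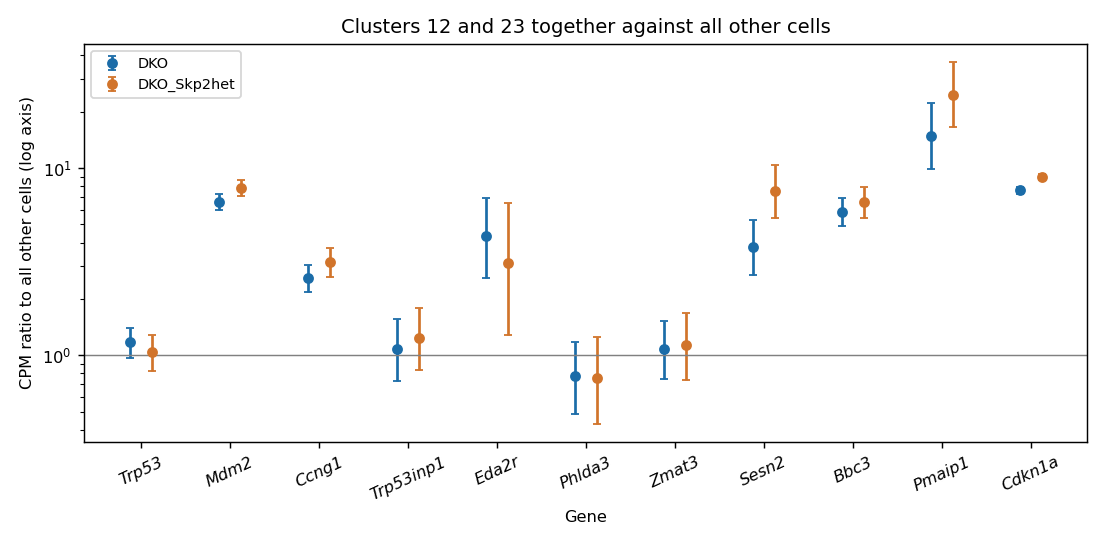
Ratio of CPM (log axis) in clusters 12 and 23 together to CPM in all other cells, for 10 genes of the p53 pathway and Cdkn1a in DKO (blue) and DKO_Skp2het (orange). Bars are 95% counting intervals, and the grey line marks no difference. Pmaip1 stands highest, at 14.9 and 24.7, while Trp53, Trp53inp1, Phlda3 and Zmat3 lie near the line in both libraries.

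Across the 14 classes, which were formed from both libraries together, the summed targets had the same first and last ranks in each library. Cluster 12 was first, at 848 CPM in DKO and 1141 CPM in DKO_Skp2het. Mdm2, by which it was singled out, gave 538 of its 1010 target UMIs in DKO and 484 of 882 in DKO_Skp2het. Its ratios without Mdm2 are given below with the processing alternatives. Cluster 4, led by Fabp7 and Rgr, followed at 340 and 346 CPM, then cluster 9, led by Epha8, Foxn4 and Rgr, at 299.8 and 325 CPM and cluster 11, led by Ptf1a, Chodl and Ripply3, at 286 and 261 CPM. Retinal progenitor-like cells, at 149 and 135 CPM, and cluster 7, led by the mitotic genes Cdc20, Tuba1c, Ccnb1 and Ube2c, at 119 and 122 CPM, came last in both libraries. Only 2 of 13 steps in DKO and 3 of 13 in DKO_Skp2het between neighbours exceeded counting error.

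Cdkn1a put clusters 12, 4, 9 and 11 in the same order, with more steps beyond counting error. It had more UMIs, 3403 against 1010 of the targets in cluster 12 of DKO, which narrows its intervals. Its step from cluster 12 to cluster 4 was 2.61 in DKO and 2.68 in DKO_Skp2het, against 2.49 and 3.30 for the targets. Cdkn1a was also among the genes used for clustering. It was at 2858 and 3604 CPM in cluster 12, 1094 and 1343 CPM in cluster 4, 898 and 1063 CPM in cluster 9, 688 and 704 CPM in cluster 11 and 429 and 517 CPM in cluster 3. Each of these steps exceeded counting error in both libraries. Its lowest levels were 20.5 and 30.6 CPM in cluster 7 and 48.7 and 39.99 CPM in bipolar-like cells. Depth also varied among these clusters, with medians of 8221 and 6625 UMIs in cluster 11 and 5306 and 3473.5 in cluster 4, and its part in the order was not tested.

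**Figure D3:**
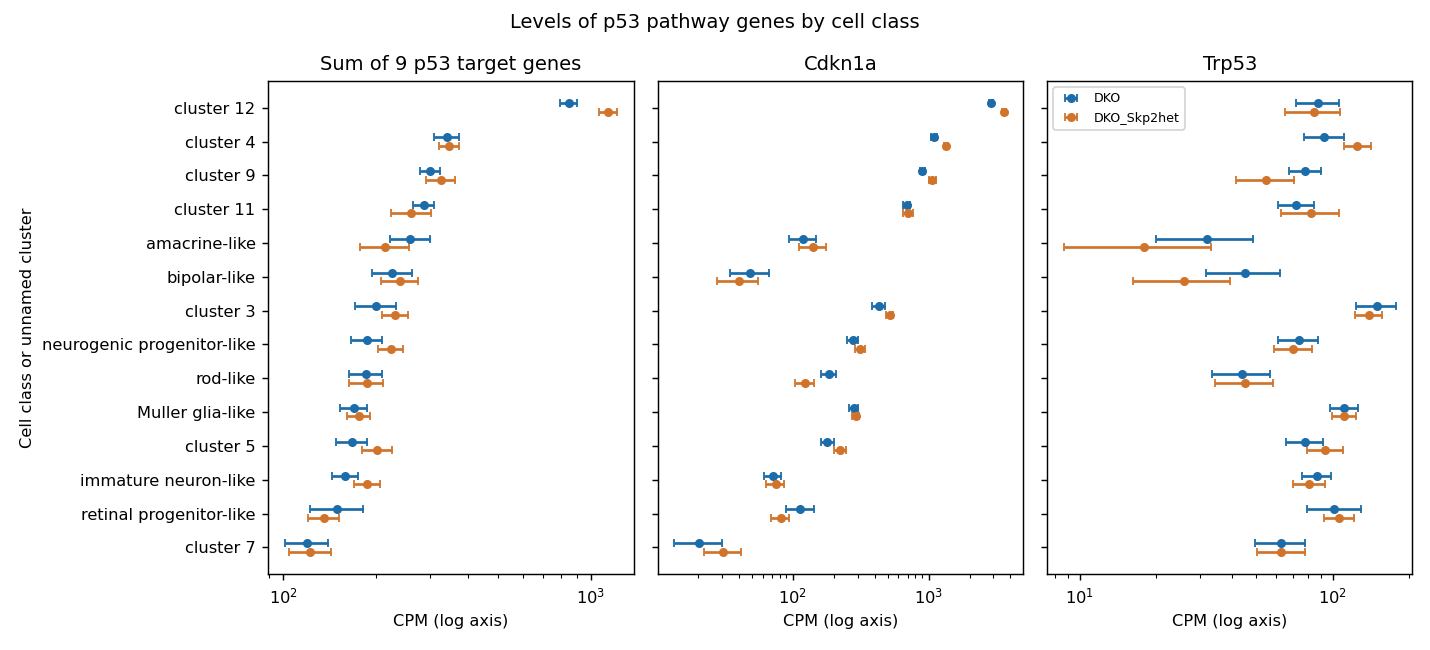
CPM (log axis) of the summed 9 targets, Cdkn1a and Trp53 in 14 classes and clusters, ordered by the target sum in DKO, with DKO in blue and DKO_Skp2het in orange. Bars are exact 95% Poisson intervals. Cluster 12 is far to the right for the targets and Cdkn1a in both libraries but not for Trp53.

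Single targets had class patterns of their own. Of the 9 targets, 6 were highest in cluster 12 in both libraries, namely Mdm2, Ccng1, Eda2r, Sesn2, Bbc3 and Pmaip1. The step to the next class exceeded counting error in both libraries only for Mdm2, which chose the cluster, and Pmaip1. For Ccng1, Sesn2 and Bbc3 it did so only in DKO_Skp2het, and for Eda2r only in DKO. The share of all genes highest in cluster 12 was not computed, so nothing is read from the count. Ccng1 came second in cluster 4, at 116 CPM in DKO and 96.0 CPM in DKO_Skp2het, and was high in cluster 9, at 81.3 and 95.6 CPM. It was low in retinal progenitor-like cells, at 11.96 and 21.8 CPM, and in cluster 7, at 18.96 and 16.8 CPM. Among named classes, bipolar-like cells had the highest Ccng1, at 63.7 and 62.3 CPM, with 7.56% and 2.91% of them dividing.

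Bbc3 was high in amacrine-like cells but not in all neurons. Amacrine-like cells were second to cluster 12, at 94.2 CPM in DKO and 64.9 CPM in DKO_Skp2het, and bipolar-like cells came next, at 38.7 and 54.1 CPM. The step between these 2 classes exceeded counting error in DKO, at 2.44 (1.56 to 3.87). In DKO_Skp2het it did not, at 1.20 (0.753 to 1.90). Cluster 4, at 33.9 and 44.4 CPM, was not separated from bipolar-like cells, and rod-like cells had 13.2 and 9.18 CPM. Neurogenic progenitor-like cells, nearly all dividing, had 3.65 and 10.1 CPM, and cluster 5, led by Tagln2, Iqgap3 and Rbp7, had 4.92 and 10.2 CPM. Only 0.606% of the neurogenic progenitor-like cells of DKO held a Bbc3 UMI after thinning, against 15.8% of amacrine-like cells. No class can be said to lack Bbc3, and no background level was measured. The lowest shares after thinning were 0.294% in cluster 5 of DKO and 0.474% in rod-like cells of DKO_Skp2het. By CPM other classes were lower, neurogenic progenitor-like cells in DKO and cluster 7, at 4.37 CPM, in DKO_Skp2het. Median depths were 4950 UMIs in cluster 5 and 5433 in amacrine-like cells of DKO.

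Sesn2 was also second in amacrine-like cells in both libraries, at 24.6 and 14.4 CPM, but on 17 and 8 UMIs. The step to cluster 4, which came next, was within counting error in both, at 1.67 (0.823 to 3.36) and 1.06 (0.416 to 2.38). Phlda3 was highest in amacrine-like cells of DKO, at 49.3 CPM, but at 27.0 CPM there in DKO_Skp2het, where cluster 4 was highest at 40.9 CPM. It was lowest in immature neuron-like cells, at 4.01 and 3.05 CPM, against 31.6 and 27.9 CPM in Muller glia-like cells. Trp53inp1 had its lowest level in amacrine-like cells, at 7.25 and 7.21 CPM, and was at 33.9 and 46.8 CPM in cluster 4. That lowest level rested on 5 and 4 UMIs. It was within counting error of cluster 7 in DKO and of cluster 5 in DKO_Skp2het. Zmat3 varied least in relative terms, from 17.4 to 32.6 CPM in DKO and from 10.7 to 34.1 CPM in DKO_Skp2het. For Zmat3, as for Trp53inp1, 0 of 13 neighbouring steps exceeded counting error in either library.

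Pmaip1 had 0 UMIs in amacrine-like and bipolar-like cells of both libraries. At their depth 0 UMIs allow levels of up to 4.35 and 5.41 CPM in amacrine-like cells and 3.75 and 3.53 CPM in bipolar-like cells, so its absence there was not shown. Mdm2 was lowest in amacrine-like cells, at 39.1 and 41.5 CPM on 27 and 23 UMIs. The step down to that level from Muller glia-like cells in DKO was 1.02 (0.655 to 1.63). From bipolar-like cells in DKO_Skp2het it was 1.13 (0.663 to 1.99), so both were within counting error. Mdm2 was second highest in cluster 9 of DKO, at 100.1 CPM, and in neurogenic progenitor-like cells of DKO_Skp2het, at 103.3 CPM. After thinning, 45.6% and 57.3% of cluster 12 cells held an Mdm2 UMI, against 10.47% and 10.99% of all cells. The lowest shares were 5.21% in cluster 3 of DKO and 5.88% in amacrine-like cells of DKO_Skp2het.

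**Figure D4:**
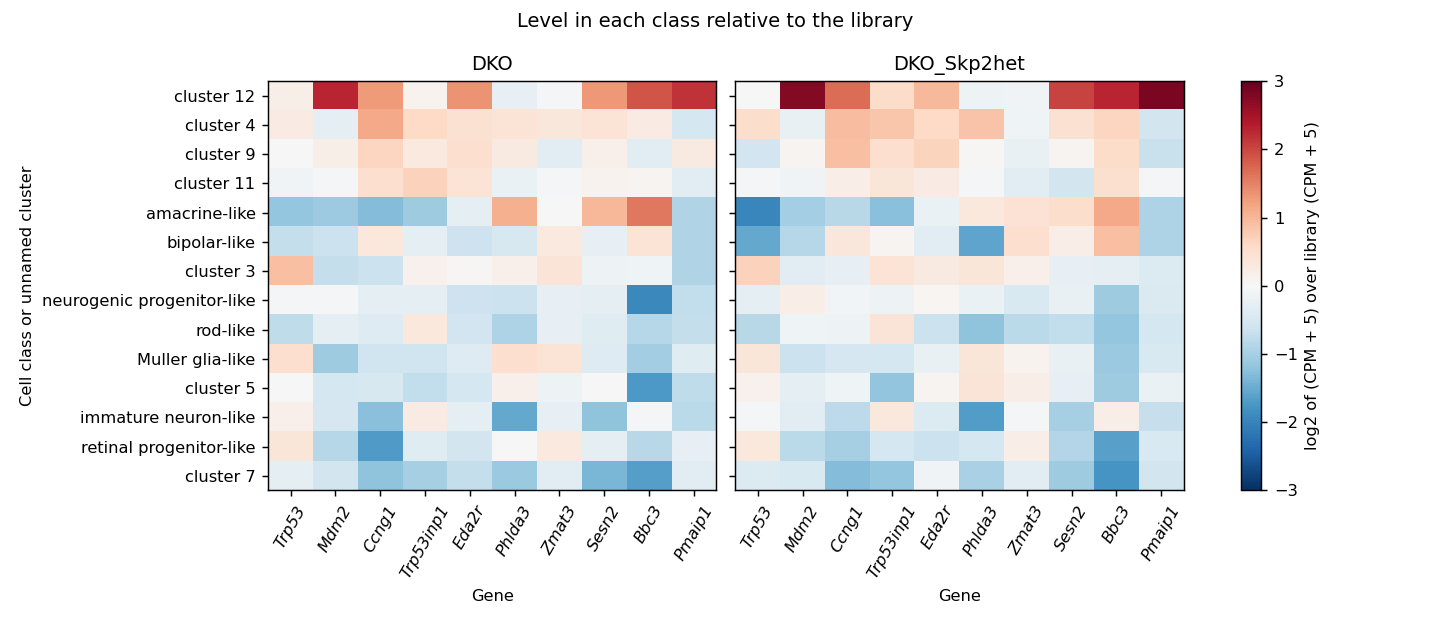
Level of each gene in each class relative to its level in the whole library, as the log2 of the ratio after adding 5 CPM to both, with DKO on the left and DKO_Skp2het on the right. Red is above and blue below the library. Cluster 12 is red for 6 targets, amacrine-like cells are red for Bbc3, and cluster 7 is blue for most genes.

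Single cells were next asked whether they held several targets at once. After thinning, 22 of 3515 DKO cells (0.626%, exact Clopper-Pearson interval 0.393% to 0.946%) and 32 of 4978 DKO_Skp2het cells (0.643%, 0.440% to 0.906%) held 3 or more of the 9 targets. Of these cells, 7 and 10 belonged to clusters 12 and 23, and 17 and 26 were dividing. They carried 76 Cdkn1a UMIs in DKO, where the means of their own clusters predicted 43.8, a ratio of 1.73 (1.37 to 2.17). In DKO_Skp2het they carried 153 against 83.0, a ratio of 1.84 (1.56 to 2.16). Cells with several targets thus held more Cdkn1a than other cells of the same cluster.

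Pairs of targets were found in the same cell slightly more often than their separate frequencies gave, within strata of cluster and depth. All 36 pairs together were seen 3177 times in DKO against 2937 expected, a ratio of 1.08 (1.04 to 1.12), and 2657 times in DKO_Skp2het against 2340 expected, a ratio of 1.14 (1.09 to 1.18). With 10 depth strata per cluster in place of 5 the ratios were 1.06 and 1.12, and depth still varied within a stratum, so its part in the rest was not tested. The 9 pairs of Trp53 with a target had ratios of 1.04 (0.992 to 1.09) and 1.06 (1.01 to 1.11). The intervals of these summed pairs treat pairs in the same cell as independent. A cell with several targets adds several pairs, so those intervals can be too narrow. In DKO 0 of 36 pairs, and in DKO_Skp2het 7 of 36, had an interval above 1.

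Of those 7 pairs, the examples here were chosen after their values were seen. The largest by count joined Ccng1 with Bbc3, seen 171 times against 143 expected, a ratio of 1.20 (1.02 to 1.39). Ccng1 with Phlda3 was seen 133 times against 97.9 expected, a ratio of 1.36 (1.14 to 1.61), and Phlda3 with Zmat3 75 times against 53.7, a ratio of 1.40 (1.10 to 1.75). Phlda3 was in 5 of the 7 pairs. Mdm2, the target with the most UMIs, was in 0 of the 7.

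Likeness was measured as the Pearson correlation across cells between each gene and the number of targets detected, after removal of cluster means and depth. Cdkn1a ranked first of 6526 genes in both libraries, with r of 0.231 over 3515 DKO cells and 0.202 over 4978 DKO_Skp2het cells. Bax, which encodes a pore-forming apoptosis effector and p53 target, followed at 0.091 and 0.070, with ranks of 2 and 5. The cells of a correlation share a library and its free RNA, and abundant genes can reach higher values in sparse counts. Values for Cdkn1a without clusters 12 and 23 were 0.233 and 0.204.

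The next genes were Rrm2, the small subunit of ribonucleotide reductase, at 0.063 and 0.078, Zfp503 at 0.065 and 0.061, Bag4 at 0.057 and 0.060 and Ddit4, a stress-induced inhibitor of mTORC1, at 0.073 and 0.055. Pacsin1, Mns1, Crabp1 and Ly6h completed the 10 highest, with lower values of 0.054, 0.053, 0.053 and 0.051 of their 2 libraries. Correlations of this size in sparse counts are no finding. Set against the other 8 targets in the same way, Ccng1 had r of 0.095 and 0.105, Phlda3 of 0.086 and 0.111 and Bbc3 of 0.059 and 0.082, while Mdm2 had 0.010 and 0.022. Trp53 had 0.030 and 0.040 with all 9.

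**Figure D5:**
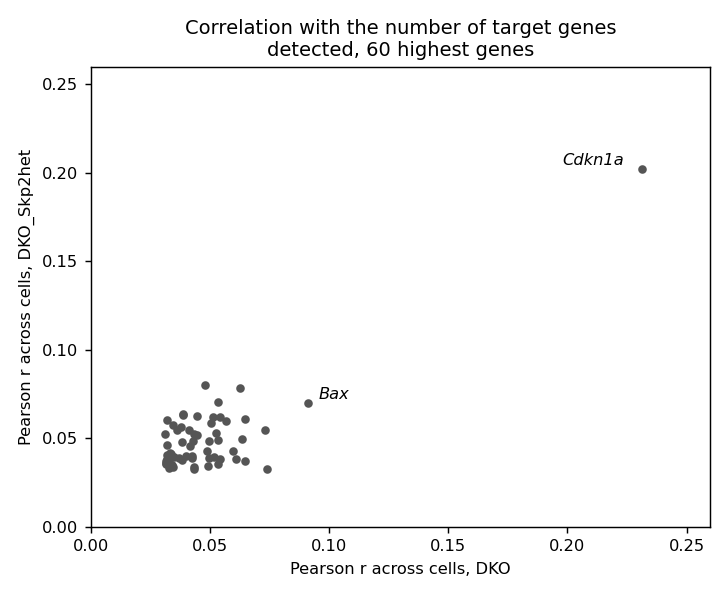
Pearson r across cells between a gene and the number of target genes detected, in DKO (horizontal axis) and DKO_Skp2het (vertical axis), for the 60 genes with the highest lower value of the 2. Cdkn1a stands apart at 0.231 and 0.202, and the highest value of any other gene was 0.0911 in DKO and 0.0803 in DKO_Skp2het.

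Other genes of the pathway were taken from lists of regulators and further targets. Between the libraries, where 9.37% of all genes were higher and 5.58% lower, 1 of 9 measured regulators was higher in DKO_Skp2het by the fold rule and 0 lower, and of the arrest targets 2 of 6 were higher and 0 lower. The regulator was Cdkn2a, whose Arf product blocks Mdm2, at 19.5 CPM in DKO and 25.8 CPM in DKO_Skp2het, a ratio of 1.32 (1.17 to 1.496). Mdm4, a partner of Mdm2 that inhibits p53, was at 60.1 and 54.5 CPM, a ratio of 0.906 (0.840 to 0.978). The arrest genes were Btg2, an antiproliferative gene, at 566 and 778 CPM with a ratio of 1.37 (1.34 to 1.41), and the kinase gene Plk3 at 4.96 and 6.74 CPM with a ratio of 1.36 (1.06 to 1.74).

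Of 9 death targets and 10 repair and metabolism targets, 0 passed the fold in either direction between the libraries, and counts this small are near the 9.37% and 5.58% of all genes. Tnfrsf10b, a death receptor gene, and Ei24 had the largest ratios of the first list, 1.15 (0.761 to 1.74) and 1.13 (1.07 to 1.19). Polk, which encodes a translesion polymerase, and Ddb2, which encodes a sensor of ultraviolet damage, each had 1.18, with intervals that included no difference. Of 9 other targets 1 was higher, the receptor gene Epha2 at 1.34 (0.949 to 1.91), and 1 lower, the secreted stress factor Gdf15 at 0.684 (0.525 to 0.890).

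Over all genes, 22.7% in DKO and 22.0% in DKO_Skp2het were higher in dividing cells, and 32.3% and 30.6% were lower. Of the 9 regulators, 6 in DKO and 5 in DKO_Skp2het were higher, and 1 in DKO and 0 in DKO_Skp2het were lower. The lower gene was Trp53bp1, which encodes a DNA damage mediator, at 0.748, named here after its value was seen. The checkpoint kinase gene Chek2 had ratios of 5.90 (4.44 to 7.98) and 6.77 (5.17 to 8.99), and Trp73, the gene of a p53 relative, of 4.58 (3.44 to 6.21) and 4.28 (3.37 to 5.51). Of the arrest targets 3 of 6 were higher in each library, with Gtse1, itself expressed in S and G2 phase, at 10.4 (6.93 to 16.2) and 25.6 (14.8 to 48.5). Of 8 death targets 2 were higher and 1 lower in each library: Pidd1 had 1.94 and 1.84, and Bid, a BH3-only gene, had 0.383 and 0.452. Repair and metabolism targets were lower in 4 of 10 and higher in 2 of 10 in each library, near the shares of all genes, with Ddit4 at 1.80 and 2.01 and the mitochondrial gene Sco2 at 0.513 and 0.536. Of the other targets 3 of 8 were higher in each, with Gdf15 at 3.51 and 5.21, and 3 in DKO and 2 in DKO_Skp2het were lower, with the adenylate kinase gene Ak1 at 0.318 and 0.388.

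In clusters 12 and 23, 25.5% of all genes in DKO and 27.0% in DKO_Skp2het were higher, and 42.9% and 44.1% were lower. Against these shares, 5 of 6 arrest targets were higher and 1 lower in each library. Cdkn1a, Btg2, Gadd45a and Plk2 of that list were among the genes used for clustering, so the count is a description only. Plk2 had ratios of 11.6 (9.98 to 13.4) and 17.4 (14.9 to 20.2), beside those of Cdkn1a. The regulators were mixed, with 3 of 9 in DKO and 4 of 9 in DKO_Skp2het higher and 2 lower in each: Trp73 had 4.205 and 3.87, Ppm1d, a phosphatase gene that shuts off p53 signalling, 2.84 and 2.59, and Chek2 2.00 and 3.06. Death targets outside the 9 were higher for 3 of 8 in DKO and 2 of 8 in DKO_Skp2het and lower for 3 and 4. Pidd1 had 2.40 and 2.12 and Apaf1, the scaffold of the apoptosome, 1.91 and 2.90, while Bid had 0.210 and 0.398 on few UMIs.

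Among repair and metabolism targets 3 of 10 were higher, near the 25.5% and 27.0% of all genes, and 3 were lower in each library, with Ddit4 at 6.50 (5.74 to 7.34) and 8.39 (7.48 to 9.40). Tigar, a regulator of glycolysis, had 1.59 and 1.76, and Fdxr, which encodes ferredoxin reductase, 0.594 and 0.838. Of the other targets 2 of 8 were higher in each, again near those shares, and 4 in DKO and 5 in DKO_Skp2het lower. Gdf15 had 12.4 (8.79 to 17.5) and 17.0 (11.2 to 25.7), while Abhd4 had 0.287 and 0.430 and Dcxr 0.422 and 0.373. Ddit4, Gdf15 and Abhd4 were also among the genes used for clustering. The median log2 ratio of the arrest list was 2.11 in DKO and 2.53 in DKO_Skp2het. The medians were -0.14 and -0.28 for death, -0.06 and -0.23 for repair and metabolism and -0.25 and -0.53 for the other targets, against -0.19 over all genes in each library.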

How the data were processed

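The authors deposited unnormalised UMI counts for each gene in each cell barcode. Per the submitters' processing notes, Cell Ranger 2.2.0 and build mm10 were used, and the barcode filter is not given in the sources used here. Cells needed 500 or more genes, and mitochondrial UMIs above 20% led to removal. Barcodes with the highest scores against simulated doublets were left out (105 in DKO, 216 in DKO_Skp2het). Leiden clusters (leidenalg 0.10.2, resolution 1) came from 2000 variable genes, 30 principal components and 15 neighbours. A cluster was named when a type's markers had a mean log2 fold of at least 1, with 3 above 2-fold and more own than foreign markers among its 10 leading genes. UMIs were summed per population and scaled to CPM. Intervals of ratios are conditional exact binomial, and those of levels exact Poisson. The calculations were tested on simulated data. Coordinates came from GENCODE annotation of GRCm38. The members, lists, clusters 12 and 23 and naming thresholds were chosen with earlier results of these data known. Named genes were the members, Cdkn1a, the 2 genes per list farthest from no change with 100 or more UMIs, and the 10 of highest likeness with 1000 or more. Alternatives varied filters, doublets, depth, scaling, thresholds and clustering. Software comprised Python 3.11.15 with scipy 1.17.1, igraph 0.11.9, numpy 2.4.6, matplotlib 3.10.9 and pandas 2.3.3.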

Additional observations from a re-analysis of the deposited data

Results flagged for a closer look

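For Phlda3 and Bbc3 the ratio of dividing to non-dividing cells was above 1 beyond counting error in DKO_Skp2het and slightly below 1, within counting error of it, in DKO. The ratio of Phlda3 was 0.993 in DKO and 1.67 in DKO_Skp2het, and that of Bbc3 was 0.975 in DKO and 1.41 in DKO_Skp2het. The difference between the libraries was not tested, since each genotype has 1 library. Class shares differed between the libraries, and their part in these ratios was not tested either.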

How the results depend on the processing

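Of 116 alternative values of the main results, 87 stayed within counting error, 29 moved and 0 changed direction, where a change of direction was counted for values whose interval excluded no difference, and of 240 for single genes 219 stayed, 18 moved and 3 changed direction. Those 3 were ratios of dividing to non-dividing cells: without clusters 12 and 23 Pmaip1 in DKO was 0.849 and Bbc3 in DKO_Skp2het 0.973, and with 5 or more UMIs for dividing Trp53 in DKO_Skp2het was 0.972. In thinned counts the target sum between libraries was 1.02 against 0.986, on the other side of 1 though both intervals include it, the dividing ratio in DKO 1.37, and cluster 12 over all other cells 5.14 in DKO and 6.17 in DKO_Skp2het, against 3.88 and 5.25. Without Mdm2 the dividing ratios were 1.30 and 1.48 and those of cluster 12 were 2.65 and 3.52. Without clusters 12 and 23, which were chosen for high Mdm2 and nearly all dividing, the dividing ratios were 1.26 and 1.28. At resolution 2.0 the highest cluster stood at 3.09 and 3.65, and at resolution 0.5 at 4.73 in DKO_Skp2het. The share of cells with several targets was 4.64% and 4.40% for 2 or more, 0.0284% and 0.0804% for 4 or more, and 13.2% and 8.06% for 3 or more in counts not thinned. Cdkn1a over its expectation in such cells was 1.43 in DKO_Skp2het for 2 or more, 1.18 and 2.52 for 4 or more, 1.23 and 1.28 in counts not thinned, 1.28 and 1.56 at resolution 2.0, 2.199 in DKO_Skp2het at resolution 0.5, and 2.47 and 2.39 without clusters 12 and 23. The cause was not tested. No paired analysis was possible because each group has 1 library, and no library could be left out for the same reason. Depth limits Pmaip1 and Eda2r most.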

Other observations

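Some clusters too small for the comparison of classes held high target levels. Cluster 27, with 12 cells in DKO and 17 in DKO_Skp2het and led by Lhx1os, Sncg, Tnr, Calb1 and Lhx1, had a sum of the 9 targets of 381 CPM (295 to 485) and 328 CPM (262 to 405), while its Cdkn1a was at 57.7 and 114 CPM. Cluster 24, with 23 and 15 cells and led by Rims1, Scg2 and Pnoc, had summed targets of 473 CPM (391 to 568) and 377 CPM (273 to 508) and Cdkn1a at 465 and 219 CPM. Microglia-like cells, 30 and 41 in number, had targets at 156 and 217 CPM and Cdkn1a at 120 and 98.9 CPM, and cone-like cells, 44 and 60, had targets at 193 and 177 CPM and Cdkn1a at 282 and 83.4 CPM.

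In counts that were not thinned, 1 DKO cell, in clusters 12 and 23, held UMIs of all 9 targets. Up to 21 Mdm2 UMIs were found in a single DKO cell and up to 16 in a single DKO_Skp2het cell.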
